A study of Mus musculus with 16 samples.

Results

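The genes described here are 9 protein-coding genes of mouse chromosome 17 that flank Cdkn1a, the gene of the cell cycle inhibitor p21: Glo1, Dnah8, Btbd9, Anks1, Rnps1, Atp6v0c, Gnptg, Prss30 and Prss41, out of 22114 genes in each count table. They were chosen because they lie near Cdkn1a and because their counts differed between libraries with and without p21 knocked out. Values from those comparisons are therefore given as a description with no test. Tests are given for the comparisons that played no part in the choice, namely the Lmo2 transgene and the sort on GFP.

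The study measured poly(A) RNA of DN3 thymocytes, early T-cell precursors of the thymus that have not yet passed the beta-selection checkpoint. They came from Lmo2-transgenic mice, which model the pre-leukemic stage of T-ALL, acute lymphoblastic leukemia of T cells, and from mice without the transgene. In 9 libraries used here the genotype varied: 3 wild-type, 2 p21-/- (Cdkn1a knocked out), 2 Lmo2Tg (a transgene that expresses the oncogene Lmo2 from the CD2 promoter, active in T-lineage cells) and 2 Lmo2Tg;p21-/-, which carry both. In 6 further libraries the DN3 cells were sorted by retention of a histone H2B-GFP label, which a doxycycline-inducible knock-in (TetOP-H2B-GFP) adds to dividing cells during a pulse and which further divisions then dilute. There were 3 GFPhi libraries (label retained, restricted cycling) and 3 GFPlo libraries (label diluted). Per the study's methods the GFP mice carried H2B-GFP and Lmo2Tg, all lines were backcrossed to C57BL/6J, and RNA came from pools of young mice. The labels of the GFP libraries give the strain as C57BL/6 and give no p21 genotype. The study describes the GFP libraries as coming from independent cohorts. For the genotype libraries the labels do not say that replicates were separate cohorts, so their p-values measure the spread between these libraries, which may in part be technical.

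A gene knocked out in embryonic stem cells is carried into a new strain together with the stretch of chromosome around it. Crossovers shorten that stretch with each generation of backcrossing but seldom remove it, so genes close to a targeted locus can keep the alleles of the embryonic stem cell strain. In these libraries the absence of p21 and the origin of the linked chromosome segment go together, and their parts in a difference between p21-/- and p21+/+ libraries cannot be told apart. The same is true of the bulk values in another respect, since fewer cells of a type and less RNA per cell cannot be told apart.

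Between 13864936 and 16837667 counts per library were assigned to genes in the genotype libraries and between 26861394 and 31106213 in the GFP libraries. Levels are given as CPM (counts scaled to the library's total) after TMM scaling, which was done separately for the genotype and the GFP data, so levels are compared only within a table. The DN3 label was checked against marker genes in all 15 libraries. The summed level of 10 DN3 genes (among them Ptcra, Rag1, Dntt and Cd3e) lay between 7410 and 11534 CPM, and that of the interleukin 2 receptor chain Il2ra between 1411 and 3225 CPM. The most abundant of them was Dntt in the wild-type and p21-/- libraries and Notch1 in most of the others. The summed level of 4 sperm genes, of interest because Dnah8 and Prss41 are best known from testis, was at most 0.94 CPM, and Tnp1 was at 0 in every library. Markers of later or earlier stages (Cd4, Cd8a, Cd8b1 and Cd44) summed to 29.8 to 158 CPM, myeloid markers to at most 32.4 CPM and erythroid markers to at most 33.7 CPM. GFPhi replicate 3 stood apart from the other GFPhi libraries, with a chi-square per degree of freedom over genes of 115 and 134 against replicates 1 and 2, which differed from each other by 7.6. GFP results are therefore given with and without it. By the same measure wild-type replicates 1 and 2 differed by only 2.64, the least of any pair within a group. They differed from wild-type replicate 3 by 18.3 and 17.4. The labels do not say whether replicates 1 and 2 were separate cohorts, so the spread among wild-type libraries may rest on fewer than 3 independent samples.

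Positions are on GRCm38 (mm10) with GENCODE M21 gene models, and distances run from the start of Cdkn1a (chr17:29090976-29100727, plus strand). Before Cdkn1a, from far to near, lie Prss41 (chr17:23836785-23844172, minus strand, 5.25 Mb away), Prss30 (chr17:23972126-23980566, minus strand, 5.12 Mb), Atp6v0c (chr17:24163866-24169702, minus strand, 4.93 Mb), Rnps1 (chr17:24414565-24425901, plus strand, 4.68 Mb), Gnptg (chr17:25233331-25240124, minus strand, 3.86 Mb) and Anks1 (chr17:27909306-28062775, plus strand, 1.18 Mb). After it lie Btbd9 (chr17:30215524-30576488, minus strand, 1.12 Mb away), Glo1 (chr17:30584936-30626871, minus strand, 1.49 Mb) and Dnah8 (chr17:30624354-30877365, plus strand, 1.53 Mb). Exons of Glo1 overlap 1700097N02Rik and those of Btbd9 overlap AC174471.1 on the same strand. On the opposite strand exons of Gnptg overlap Unkl, those of Anks1 overlap Taf11 and those of Prss41 overlap Prss32. The genotype table's name marks it as counted without strand, so reads of such overlapping genes cannot be told apart there.

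Promoter sequence is shown for the members on which the comparisons turn most: the neighbours Glo1 and Dnah8, which point away from each other and were higher together without p21, and the serine protease genes Prss30 and Prss41, which lie close together and differed in opposite directions. Each run covers 250 bases before and 50 after the RefSeq start on GRCm38.p6, in the direction of transcription. Capitals mark letters of the motifs searched on both strands. These were the TATA box written TATAAA, the GC box written GGGCGG, the CCAAT box, an E box written CAGGTG, a RUNX core written TGTGGT and an ETS core written CCGGAAG.
Glo1 (chr17:30612610-30612909, minus strand): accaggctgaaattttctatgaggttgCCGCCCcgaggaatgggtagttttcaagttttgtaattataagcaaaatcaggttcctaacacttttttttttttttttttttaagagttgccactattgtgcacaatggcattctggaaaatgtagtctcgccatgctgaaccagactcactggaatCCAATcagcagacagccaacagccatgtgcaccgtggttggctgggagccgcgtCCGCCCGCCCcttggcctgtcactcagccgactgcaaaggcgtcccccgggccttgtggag
Dnah8 (chr17:30626686-30626985, plus strand): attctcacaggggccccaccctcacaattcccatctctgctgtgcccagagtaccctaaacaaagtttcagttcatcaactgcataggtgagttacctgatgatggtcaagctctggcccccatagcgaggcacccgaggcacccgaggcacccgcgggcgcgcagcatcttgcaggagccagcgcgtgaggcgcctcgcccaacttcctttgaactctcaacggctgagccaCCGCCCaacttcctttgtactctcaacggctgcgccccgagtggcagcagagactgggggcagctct
Prss30 (chr17:23975181-23975480, minus strand): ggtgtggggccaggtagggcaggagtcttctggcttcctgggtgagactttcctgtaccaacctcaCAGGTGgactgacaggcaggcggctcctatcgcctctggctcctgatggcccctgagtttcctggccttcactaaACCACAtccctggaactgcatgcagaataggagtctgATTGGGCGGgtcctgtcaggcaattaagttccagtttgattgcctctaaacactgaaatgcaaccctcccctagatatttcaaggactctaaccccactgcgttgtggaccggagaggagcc
Prss41 (chr17:23844107-23844406, minus strand): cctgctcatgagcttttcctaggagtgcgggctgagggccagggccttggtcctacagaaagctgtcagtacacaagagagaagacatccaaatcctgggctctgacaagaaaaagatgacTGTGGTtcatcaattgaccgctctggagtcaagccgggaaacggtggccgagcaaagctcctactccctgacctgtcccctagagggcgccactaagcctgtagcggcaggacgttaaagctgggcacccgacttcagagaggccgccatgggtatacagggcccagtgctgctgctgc

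RefSeq held such a window for 7 of the 9 members, and Btbd9 and Rnps1 had none. The Glo1 window held 3 GC boxes and 1 CCAAT with 11 CG dinucleotides, and the Dnah8 window 1 GC box with 16 CG, against a median of 7 CG over 27025 promoter windows. The Prss30 window held a GC box, a CCAAT, an E box and a RUNX core, 1 of each, and the Prss41 window 1 RUNX core. Of all windows, 14.2% held the TATA box letters, 35.9% those of the GC box, 37.9% CCAAT, 20% those of the E box, 16.9% those of the RUNX core and 9.12% those of the ETS core. No member window held TATAAA. These matches describe letters and say nothing of binding.

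Cdkn1a itself, the target of the knockout, was read first. Its level was 36.5, 37.5 and 49.0 CPM in the wild-type libraries, 14.3 and 17.7 CPM in p21-/-, 32.8 and 26.3 CPM in Lmo2Tg, and 4.35 and 3.5 CPM in Lmo2Tg;p21-/-. Every library without p21, on either background, lay below every p21-intact library, and reads remained over the gene. Which part of the gene was deleted is not given in the sources used here. In the sorted cells Cdkn1a stood at 35.8, 29.9 and 6.56 CPM in GFPhi and 12.02, 11.1 and 8.08 CPM in GFPlo. GFPhi replicate 3 lay below all GFPlo libraries, and the other GFPhi libraries above them. The difference did not pass with all 6 libraries (log2 1.21 ± 0.59 SE, adjusted p = 0.207, edgeR quasi-likelihood, Benjamini-Hochberg) and passed without GFPhi replicate 3 (log2 1.67, adjusted p = 0.000624, same test).

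Which genes near Cdkn1a differed with p21 was the comparison by which the members were chosen. Glo1, Dnah8, Btbd9 and Prss41 were higher without p21, and Anks1, Rnps1, Atp6v0c, Gnptg and Prss30 were lower. In the whole genotype table, 13 genes were called at an adjusted p under 0.05 between p21-/- and wild-type DN3 cells, which is 0.11% of 11840 genes tested (0.0507% higher and 0.0591% lower without p21). Among them were the 9 members, Cdkn1a, Hmga1 and Gm9825. Between Lmo2Tg;p21-/- and Lmo2Tg, 8 of the 9 members were among the 822 genes called (6.94% of those tested, 3.35% higher and 3.59% lower). Nothing is read from these shares, since the members were picked on this contrast. The members nearest to the limit of the call were Dnah8 (log2 1.03), Prss41, which rests on few counts, and Btbd9 (log2 0.53). Just outside the limit lay the neighbouring genes Abca3 (0.68), Baiap3 (-2.996) and Grm4 (1.47), named after their values were seen.

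Glo1, after Cdkn1a, encodes glyoxalase I, which with glutathione clears methylglyoxal, a reactive by-product of glycolysis. Its level was 55.7, 51.1 and 55.8 CPM in wild-type, 110 and 120 CPM in p21-/-, 60.8 and 55.2 CPM in Lmo2Tg, and 145 and 142 CPM in Lmo2Tg;p21-/-. The libraries without p21 lay above all p21-intact libraries with a wide gap, and the 5 p21-intact libraries lay close together whether or not they carried the transgene. Glo1 was 2.12-fold higher in p21-/- than in wild-type and 2.47-fold higher in Lmo2Tg;p21-/- than in Lmo2Tg.

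Dnah8 encodes an axonemal dynein heavy chain, a motor of the sperm tail and of motile cilia. Its level was 202, 209 and 136 CPM in wild-type, 393 and 353 CPM in p21-/-, 429 and 355 CPM in Lmo2Tg, and 1129 and 1201 CPM in Lmo2Tg;p21-/-. It stepped up with each of the knockout and the transgene, and the libraries that carried both stood above all others. The log2 difference was 1.03 between p21-/- and wild-type and 1.57 between Lmo2Tg;p21-/- and Lmo2Tg.

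Btbd9, a BTB-domain protein that serves as a substrate adaptor of cullin 3 ubiquitin ligases, had the smallest differences of the 9. Its level was 37.2, 38.5 and 38.5 CPM in wild-type, 56.6 and 53.4 CPM in p21-/-, 49.0 and 50.9 CPM in Lmo2Tg, and 72.4 and 68.2 CPM in Lmo2Tg;p21-/-. The 4 groups did not overlap. The log2 difference was 0.53 between p21-/- and wild-type and 0.49 between Lmo2Tg;p21-/- and Lmo2Tg.

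Prss41 encodes a trypsin-like serine protease known from testis. It had 0, 1 and 2 counts in wild-type, 35 and 56 in p21-/-, 0 and 3 in Lmo2Tg, and 8 and 28 in Lmo2Tg;p21-/-. The p21-intact libraries were at or near 0 and every p21-/- library was above them. The summed counts were 91 in p21-/- against 3 in wild-type, and 36 in Lmo2Tg;p21-/- against 3 in Lmo2Tg.

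**Figure D1:**
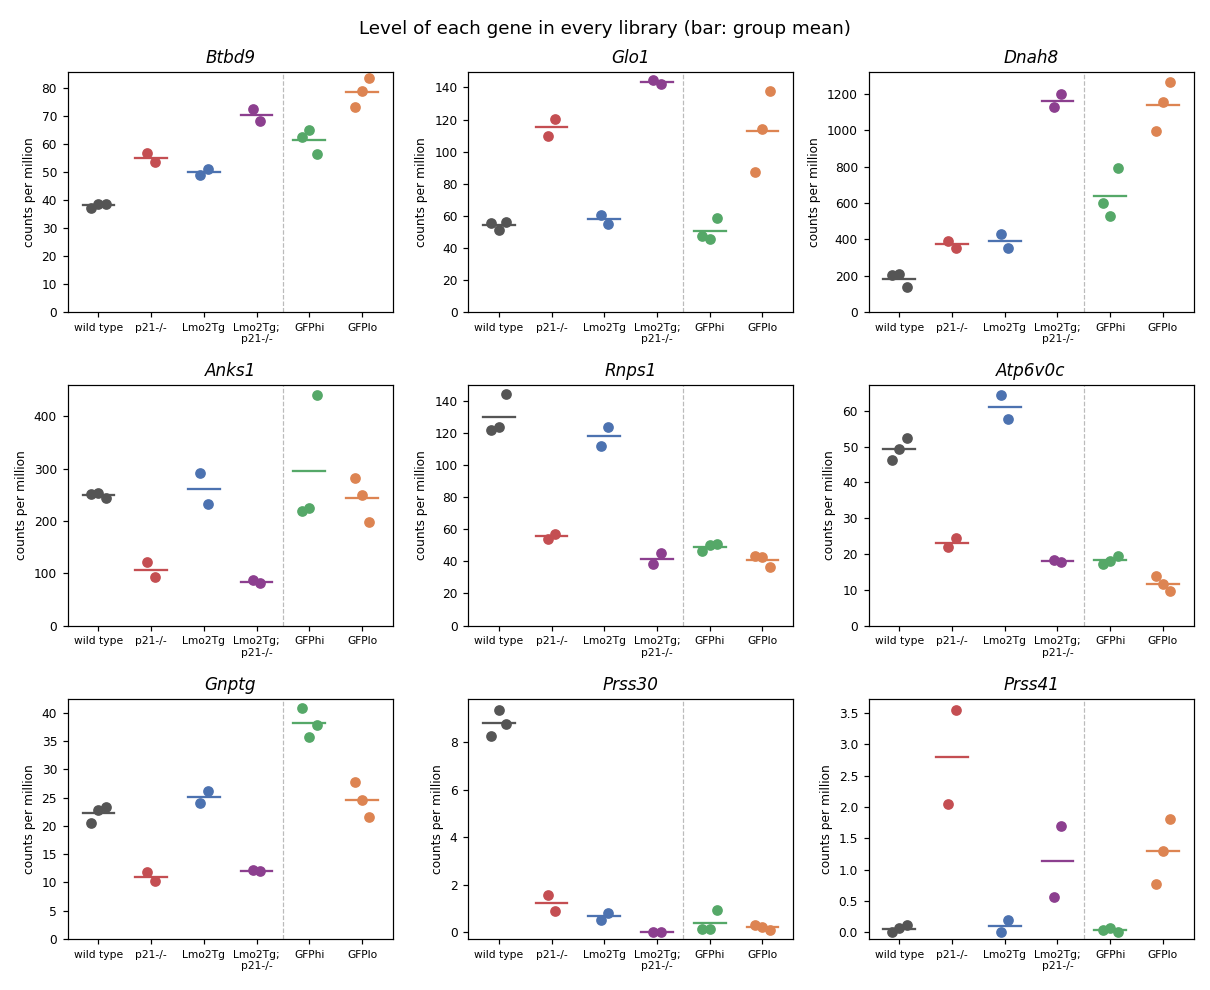
Level (CPM) of the 9 flanking genes in each library, by group; points are libraries and bars group means, with the genotype and GFP tables scaled separately. The p21-/- libraries of Glo1 (110 to 145 CPM) lie above the p21-intact ones (51.1 to 60.8 CPM), and GFPlo (87.2 to 138 CPM) lies above GFPhi (45.5 to 58.4 CPM).

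Anks1, the nearest member before Cdkn1a, encodes an adaptor protein of Eph receptor signalling. Its level was 251, 254 and 244 CPM in wild-type, 121 and 92.3 CPM in p21-/-, 291 and 232 CPM in Lmo2Tg, and 86.7 and 80.7 CPM in Lmo2Tg;p21-/-. The p21-/- libraries lay below all p21-intact libraries. The log2 difference was -1.23 between p21-/- and wild-type and -1.64 between Lmo2Tg;p21-/- and Lmo2Tg.

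Rnps1 encodes an RNA-binding splicing factor that joins the exon junction complex. Its level was 122, 124 and 144 CPM in wild-type, 54.2 and 57.0 CPM in p21-/-, 112 and 124 CPM in Lmo2Tg, and 38.2 and 45.3 CPM in Lmo2Tg;p21-/-. No p21-/- library reached the lowest p21-intact one. The log2 difference was -1.23 between p21-/- and wild-type and -1.50 between Lmo2Tg;p21-/- and Lmo2Tg.

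Atp6v0c, which encodes the proteolipid ring subunit of the V-ATPase proton pump, and Gnptg, the gamma subunit of the enzyme that starts the mannose 6-phosphate tag of lysosomal enzymes, both serve the lysosome. Atp6v0c stood at 46.3, 49.2 and 52.4 CPM in wild-type, 21.8 and 24.4 CPM in p21-/-, 64.3 and 57.6 CPM in Lmo2Tg, and 18.4 and 17.7 CPM in Lmo2Tg;p21-/-. Gnptg stood at 20.5, 22.8 and 23.4 CPM in wild-type, 11.8 and 10.2 CPM in p21-/-, 24.1 and 26.1 CPM in Lmo2Tg, and 12.2 and 11.96 CPM in Lmo2Tg;p21-/-. Both were lower in every p21-/- library than in any p21-intact one. For Atp6v0c the log2 difference was -1.10 between p21-/- and wild-type and -1.76 between Lmo2Tg;p21-/- and Lmo2Tg. For Gnptg it was -1.01 and -1.06 in the same order.

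Prss30, another trypsin-like serine protease gene, stood highest in wild-type. Its level was 8.27, 9.35 and 8.77 CPM in wild-type, 1.58 and 0.89 CPM in p21-/-, 0.52 and 0.82 CPM in Lmo2Tg, and 0 in both Lmo2Tg;p21-/- libraries. The lowest wild-type library lay above all others. The log2 difference between p21-/- and wild-type was -2.82, and Lmo2Tg was at least 3.39-fold higher than Lmo2Tg;p21-/-, taking a floor of 3 counts per library for the latter.

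Per kilobase of exon, so that genes can be set side by side, the mean level in wild-type DN3 cells was highest for Rnps1 (25.3 CPM per kb) and Anks1 (24.6), followed by Atp6v0c (14.6), Gnptg (9.89), Dnah8 (6.81), Glo1 (4.48), Prss30 (3.63), Btbd9 (2.09) and Prss41 (0.0233). In Lmo2Tg;p21-/- the order was led by Dnah8 at 43.4 CPM per kb and Glo1 at 11.9, ahead of Anks1 at 8.26 and Rnps1 at 8.14. Union exon length was used, which lowers the value of genes with long alternative exons.

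**Figure D2:**
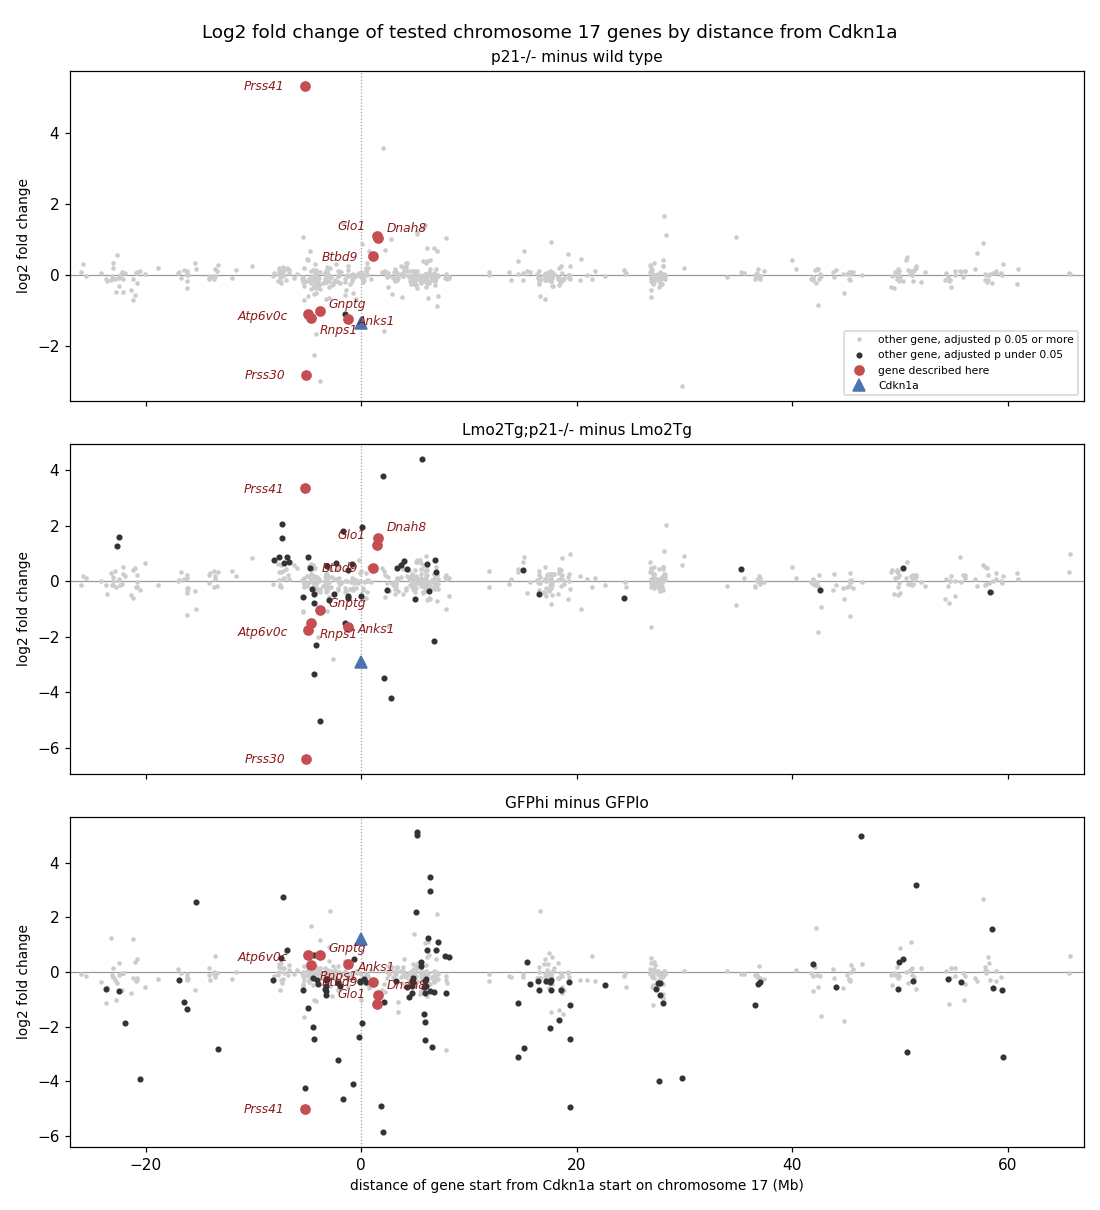
log2 fold change of tested chromosome 17 genes against distance (Mb) from the start of Cdkn1a, for p21-/- minus wild-type, Lmo2Tg;p21-/- minus Lmo2Tg and GFPhi minus GFPlo; the members and Cdkn1a are marked, and the value of Prss30 in the Lmo2Tg pair depends on the prior count because a group is at 0. In p21-/- minus wild-type all 10 called chromosome 17 genes other than Cdkn1a lie within 10 Mb of it.

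The position of called genes was then read along the chromosome, with the members counted apart because they were chosen for it. Between p21-/- and wild-type, 10 of 333 genes tested within 10 Mb of Cdkn1a were called (3%), among them the 9 members, and 0 of 200 genes more than 20 Mb away on chromosome 17. With the members left out, 1 of 324 within 10 Mb was called (0.309%), against 2 of 11163 on other chromosomes (0.0179%). That gene was Hmga1 (chr17:27556497-27563674, 1.53 Mb before Cdkn1a), a chromatin protein of the high mobility group whose level is uncertain, since its counts may include reads from like sequence elsewhere. Between Lmo2Tg;p21-/- and Lmo2Tg, 51 of 333 genes within 10 Mb were called (15.3%), 27 higher and 24 lower. With the members left out it was 43 of 324 (13.3%), against 7 of 200 (3.5%) farther than 20 Mb on chromosome 17 and 758 of 11163 (6.79%) on other chromosomes. With the members included, the counts before Cdkn1a were 8 of 29 genes at 0 to 2 Mb, 15 of 88 at 2 to 5 Mb and 9 of 38 at 5 to 10 Mb. After it they were 4 of 18, 8 of 61 and 7 of 99 at the same distances. Leaving out the first Lmo2Tg;p21-/- library lowered the 51 to 13. The 822 called over all genes tested fell by a larger factor in the same fit, whose count is given at the end.

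The called neighbours nearest to Cdkn1a that are not members moved in both directions between Lmo2Tg;p21-/- and Lmo2Tg. Before it these were Srsf3, a splicing factor (log2 -0.54, 0.06 Mb away), Ppard, a nuclear receptor for fatty acids (0.63), Taf11 of the TFIID complex (-0.52), Uhrf1bp1 (0.42) and Snrpc of the U1 snRNP (-0.60). After it they were Cpne5, a calcium-dependent lipid-binding protein (log2 1.95, 10.8 against 2.81 CPM, 0.06 Mb away), the trefoil factor Tff3 (14 and 19 counts against 2 and 0), the serine protease Tmprss3 (-3.49), Wdr4 (-0.33) and the kinase Sik1 (-4.22, 29.5 against 550 CPM). Exons of Taf11 overlap those of Anks1 on the opposite strand, so their counts may share reads.

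**Figure D3:**
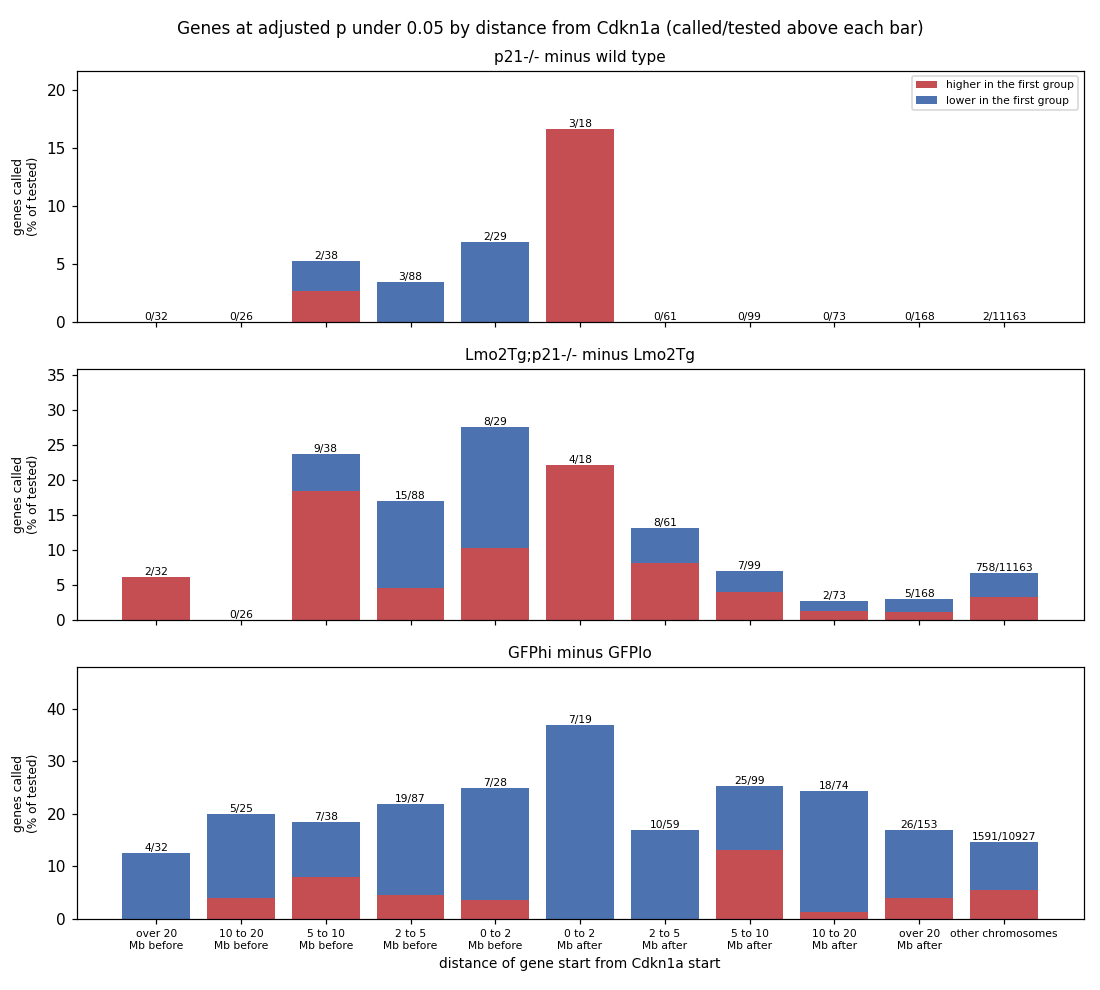
Share (%) of tested genes called at an adjusted p under 0.05 by distance from Cdkn1a, for p21-/- minus wild-type, Lmo2Tg;p21-/- minus Lmo2Tg and GFPhi minus GFPlo, with other chromosomes for comparison; colours split higher from lower in the first group. The members are included, so the shares near Cdkn1a in the upper panels follow in part from their choice.

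Gm9825, called on another chromosome in the p21-/- comparison, is a copy of Rnps1. This processed pseudogene (chr6:7982541-7983383, minus strand) lines up without a gap along all its 843 bases with the end of the Rnps1 coding sequence, with 5 bases different (99.4% equal). Coding bases 523 to 582 of Rnps1 and the matching part of Gm9825 are shown because they show how alike the pair is, with differing bases in capitals (GENCODE M21 transcripts).
Rnps1: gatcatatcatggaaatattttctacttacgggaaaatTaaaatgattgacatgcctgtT
Gm9825: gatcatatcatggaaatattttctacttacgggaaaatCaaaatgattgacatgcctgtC

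Of the 794 windows of 50 bases in Gm9825, 72.2% are found in Rnps1 transcripts, so a read from either can fit both. How the authors' counting split such reads is not given in the sources used here, and the levels of both are uncertain. Gm9825 was at 1.23, 0.76 and 1.15 CPM in wild-type, 46.0 and 49.5 CPM in p21-/-, 0.81 and 0.75 CPM in Lmo2Tg, and 38.3 and 40.6 CPM in Lmo2Tg;p21-/-. It was thus near 1 CPM in all p21-intact libraries and above 38 CPM in all p21-/- libraries. Hmga1, the called neighbour named above, went from 241, 235 and 293 CPM in wild-type to 122 and 115 CPM in p21-/-. Of its windows of 50 bases, 55% also occur in like sequence elsewhere, so the size of this fall is uncertain.

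The sum of Rnps1 and Gm9825, from which reads that fit both may be missing (this was not tested), was 131 ± 12.5 CPM in wild-type (SD, n = 3), 103 ± 4.52 in p21-/- (n = 2), 119 ± 8.35 in Lmo2Tg (n = 2) and 81.2 ± 6.75 in Lmo2Tg;p21-/- (n = 2). Gm9825 held 0.798% of that sum in wild-type and 46.2% in p21-/-. Summing thus narrowed the gap of Rnps1 between the groups, and the p21-/- means still lay lower. Among the other members 10.7% of the windows of Atp6v0c occur in the pseudogene Atp6v0c-ps2 and 3.24% of those of Glo1 in the pseudogene Gm13443, while Prss30 and Prss41 shared none. Of the windows of Gnptg 47.4% occur in Unkl on the opposite strand, the largest share among the members, and 6.53% of those of Btbd9 occur in AC174471.1. Since the genotype table was counted without strand, the levels of Gnptg there are uncertain.

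**Figure D4:**
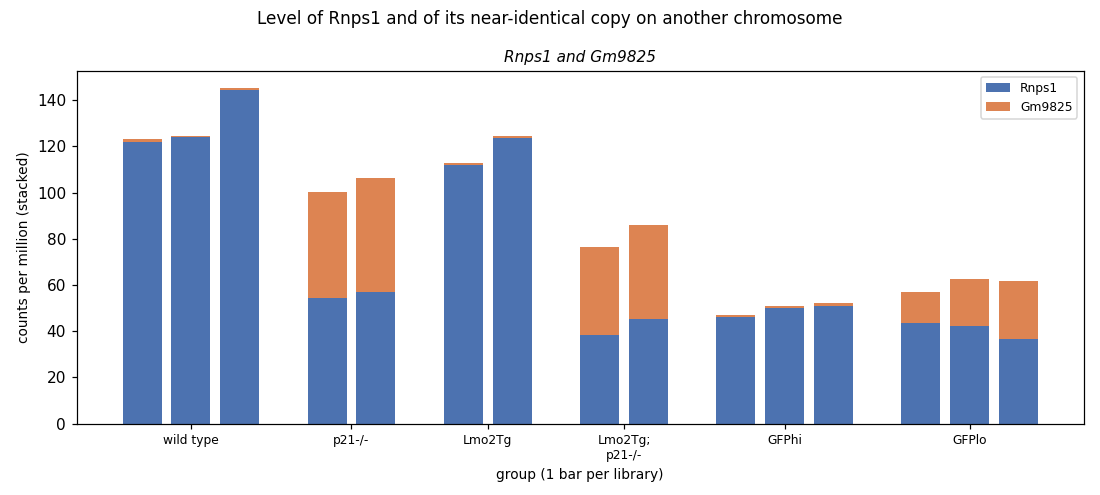
Level (CPM) of Rnps1 with its copy Gm9825, stacked, with 1 bar per library. On average Gm9825 makes up 46.2% of its pair in p21-/- and 0.798% in wild-type, and 32.4% in GFPlo against 1.61% in GFPhi.

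The Lmo2 transgene was compared on p21-intact DN3 cells first. Prss41 passed the filter on low counts only through libraries without p21, and Prss30 through wild-type and p21-/- libraries, where it was highest, so both are given by their counts with no test. Of the other 7 members 3 were called in Lmo2Tg against wild-type, where 36.6% of all genes tested were (4329 of 11840, 19.7% higher and 16.9% lower). Dnah8, Btbd9 and Atp6v0c rose. Of the 10 DN3 markers, 9 were lower in both Lmo2Tg libraries than in every wild-type library and Notch1 was higher (1326 to 1629 CPM in wild-type, 1649 and 1866 CPM in Lmo2Tg): Ptcra stood at 134 to 186 CPM in wild-type and 26.0 to 55.7 CPM in Lmo2Tg, Rag2 at 62.0 to 84.9 and 14.3 to 14.4 CPM, and Cd3g at 1032 to 1237 and 360 to 395 CPM. Cd8a stood at 7.63 to 9.80 CPM in wild-type and 32.9 to 34.5 CPM in Lmo2Tg, and Epcam at 48.0 to 57.0 and 17.98 to 19.5 CPM, and the part of these markers in the members' differences was not tested. Dnah8 rose 2.15-fold (log2 1.10 ± 0.16 SE, adjusted p = 0.000385, edgeR quasi-likelihood, Benjamini-Hochberg), with both Lmo2Tg libraries above all wild-type ones. Prss30 had 135, 147 and 145 counts in wild-type and 7 and 12 in Lmo2Tg. Btbd9 rose by a log2 of 0.39 ± 0.08 (edgeR adjusted p = 0.00221) and Atp6v0c by 0.305 ± 0.09 (edgeR adjusted p = 0.0225), the latter losing its call without the first or second wild-type library or one of the Lmo2Tg libraries (adjusted p = 0.077, 0.062 and 0.182). Glo1 differed by a log2 of 0.10 (adjusted p = 0.385), Anks1 by 0.07 (0.692), Rnps1 by -0.14 (0.297) and Gnptg by 0.18 (0.253), none of which passed the edgeR test.

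On the p21-/- background 5 of the same 7 members were called between Lmo2Tg;p21-/- and p21-/-, where 30.7% of all genes tested were (3639 of 11840, 16.3% higher and 14.4% lower). Cell markers moved here too, with 8 of the 10 DN3 genes lower in both Lmo2Tg;p21-/- libraries and Notch1 and Il2ra higher. Ptcra stood at 132 to 157 CPM in p21-/- and 22.4 to 35.8 CPM in Lmo2Tg;p21-/-, Rag2 at 72.9 to 97.3 and 25.4 to 36.5 CPM, and Cd3g at 1047 to 1075 and 326 to 364 CPM. Cd8a stood at 5.19 to 13.7 and 21.8 to 29.5 CPM and Epcam at 41.1 to 46.9 and 13.9 to 14.99 CPM, in the same order, and the part of these markers in the members' differences was not tested. Dnah8 rose 3.12-fold (log2 1.64 ± 0.18 SE, adjusted p = 6.23e-05, edgeR quasi-likelihood, Benjamini-Hochberg). This call held in every alternative fit run. Prss30 had 27 and 14 counts in p21-/- and 0 in both Lmo2Tg;p21-/- libraries, so its level in p21-/- was at least 6.25-fold higher on a floor of 3 counts per library. Glo1 rose by a log2 of 0.32 ± 0.09 (edgeR adjusted p = 0.0176) and Btbd9 by 0.35 ± 0.08 (edgeR adjusted p = 0.00723). Rnps1 fell by 0.41 on the log2 scale (edgeR adjusted p = 0.0201) and Atp6v0c by 0.355 (edgeR adjusted p = 0.0306). Each of these smaller calls was lost when single libraries were left out: Glo1 without either Lmo2Tg;p21-/- library or the first p21-/- library, Btbd9 without the first Lmo2Tg;p21-/- or the second p21-/- library, and Rnps1 without the first Lmo2Tg;p21-/- library or either p21-/- library, at adjusted p between 0.053 and 0.162. Atp6v0c was also lost under DESeq2 (adjusted p = 0.053). Anks1 (log2 -0.35, adjusted p = 0.0714) and Gnptg (0.13, 0.494) did not pass the edgeR test. Calls were gained as well. With the replicate number as a block 8 of all 9 members were called, against 6 in the main fit, with Prss30 and Prss41 counted in both. Of all genes tested more were called there as well than the 3639 of the main fit, and that count is given at the end. Anks1, Gnptg or both thus passed there. Whether the effect of the transgene on a member differed between p21-intact and p21-/- cells was not tested. The comparisons share no library, and for Dnah8 the log2 differences were 1.10 and 1.64.

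**Figure D5:**
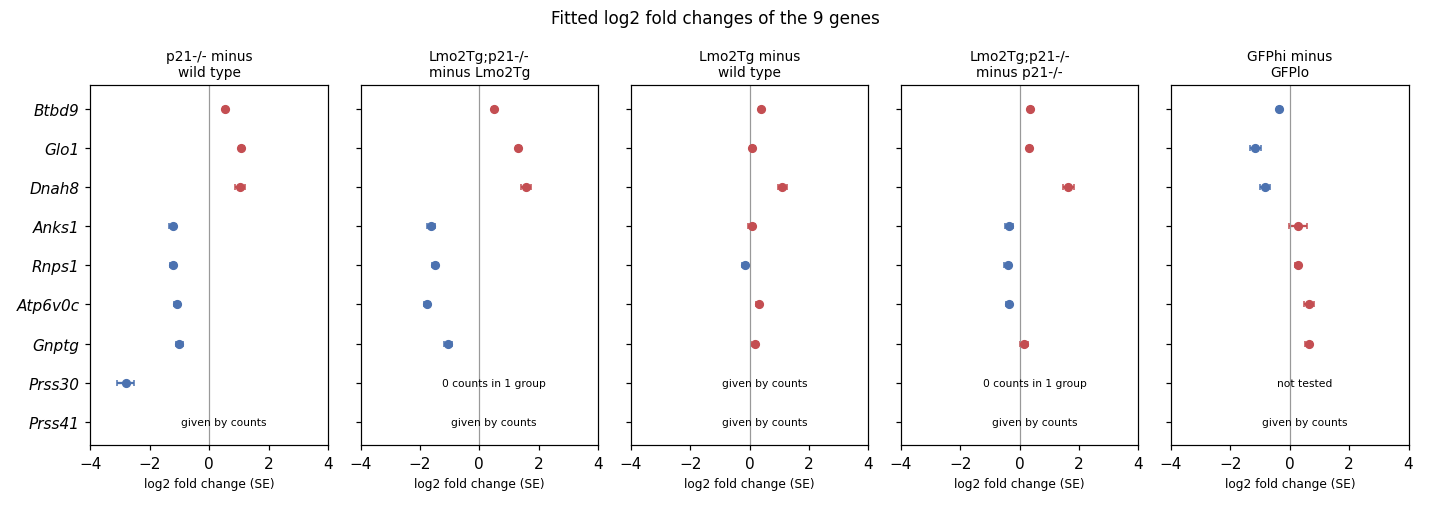
log2 fold change of the members in each comparison, with bars of 1 standard error, red above and blue below 0; a group at 0 counts is written as text, Prss30 was not tested in the GFP table, and genes that rest on few counts are marked as given by counts. Dnah8 is raised with the transgene on both backgrounds (1.10 and 1.64), and Glo1, Dnah8 and Btbd9 lie below 0 in GFPhi minus GFPlo.

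The sort on the GFP label used other libraries than those on which the members were chosen. Prss30 was too low to be tested, and Prss41 passed the filter on low counts only through GFPlo, where it is high, so it is given by its counts alone. Of the other 7 members 5 were called, where 14.9% of all genes tested were (1721 of 11581, 5.37% higher and 9.49% lower in GFPhi). Glo1, Dnah8 and Btbd9 were lower in GFPhi than in GFPlo, and Atp6v0c and Gnptg were higher. The groups did not overlap for 6 of the 7, as for 41.3% of all genes tested. Without GFPhi replicate 3 the same 5 were called, where 41.3% of all genes were (4848 of 11745).

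Glo1 stood at 47.7, 45.5 and 58.4 CPM in GFPhi and 87.2, 114 and 138 CPM in GFPlo. The groups did not overlap, and it was 2.23-fold higher in GFPlo (log2 GFPhi minus GFPlo -1.16 ± 0.19 SE, adjusted p = 0.0143, edgeR quasi-likelihood, Benjamini-Hochberg; -1.27, 0.0022 without GFPhi replicate 3). Dnah8 stood at 600, 528 and 791 CPM in GFPhi and 999, 1158 and 1266 CPM in GFPlo. It was 1.78-fold higher in GFPlo, again without overlap (log2 -0.83 ± 0.17, edgeR adjusted p = 0.0279; -1.01, 0.000848 without replicate 3).

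Btbd9 stood at 62.3, 65.1 and 56.2 CPM in GFPhi and 73.1, 78.9 and 83.3 CPM in GFPlo (log2 -0.36 ± 0.08, edgeR adjusted p = 0.0375; -0.30, 0.016 without replicate 3). Prss41 had 1, 2 and 0 counts in GFPhi and 21, 37 and 56 in GFPlo. The summed counts were 114 in GFPlo against 3 in GFPhi. Both genes had all GFPlo libraries above all GFPhi libraries.

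Atp6v0c stood at 17.1, 18.1 and 19.5 CPM in GFPhi and 13.9, 11.7 and 9.56 CPM in GFPlo (log2 0.64 ± 0.16, edgeR adjusted p = 0.0481; 0.59, 0.0222 without replicate 3). Gnptg stood at 40.9, 35.7 and 37.9 CPM in GFPhi and 27.7, 24.5 and 21.6 CPM in GFPlo (log2 0.63 ± 0.11, edgeR adjusted p = 0.0203; 0.64, 0.00578 without replicate 3). Both lysosomal genes were lower in every GFPlo library.

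Rnps1 stood at 46.2, 49.997 and 51.1 CPM in GFPhi and 43.5, 42.4 and 36.7 CPM in GFPlo, without overlap, and did not pass (log2 0.26 ± 0.09, edgeR adjusted p = 0.0969; 0.24, 0.068 without replicate 3). Anks1 stood at 220, 224 and 441 CPM in GFPhi and 283, 250 and 198 CPM in GFPlo. GFPhi replicate 3 alone was far above the rest, and the log2 difference went from 0.28 (edgeR adjusted p = 0.56) to -0.13 (0.483) without it. Prss30, at 0.10 to 0.93 CPM in all 6 libraries, was too low to be tested.

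These calls rested on few libraries. All 5 were lost without GFPhi replicate 1, GFPlo replicate 2 or GFPlo replicate 3, at adjusted p between 0.052 and 0.179. Glo1 and Gnptg kept theirs without GFPhi replicate 2, and Glo1, Atp6v0c and Gnptg without GFPlo replicate 1. With the replicate number as a block, Glo1 (adjusted p = 0.0392) and Dnah8 (0.0464) were called by edgeR, and Btbd9 (0.115), Atp6v0c (0.128) and Gnptg (0.0561) were not. The number of all genes called moved as well, from 1721 to 273 without GFPlo replicate 2.

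For all 7 members other than Prss30 and Prss41, the direction of GFPlo relative to GFPhi was that of p21-/- relative to wild-type, by which they were chosen, and for 6 of 7 without GFPhi replicate 3, Anks1 being the exception. These comparisons share no library. The same direction was found in 52.5% of the 11252 genes tested in both tables and in 44.9% of the 314 other genes within 10 Mb of Cdkn1a. Only 13 of all genes tested were called between p21-/- and wild-type. These shares thus rest mostly on genes without a called p21 difference, unlike the members, and are no like background for them. Of the 7 members, Anks1 and Rnps1 were not called between GFPhi and GFPlo. The copy of Rnps1 also had the same direction in both comparisons. Gm9825 stood at 0.66, 0.78 and 0.97 CPM in GFPhi and 13.6, 20.3 and 25.1 CPM in GFPlo, 24.3-fold higher (log2 GFPhi minus GFPlo -4.60, edgeR adjusted p = 0.00159; -4.75, 0.0002 without GFPhi replicate 3). Hmga1 did not pass (log2 0.04, edgeR adjusted p = 0.855; 0.18, 0.0954 without replicate 3). The summed Rnps1 and Gm9825 level was 49.9 ± 2.71 CPM in GFPhi and 60.5 ± 3.04 CPM in GFPlo (SD, n = 3 each). This sum was higher in GFPlo, whereas in p21-/- it was lower than in wild-type (103 against 131 CPM). Counted by the sum, Rnps1 thus did not share the direction.

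Within GFPlo, replicate 3 was the highest of the 3 for Glo1, Dnah8, Btbd9, Prss41 and Gm9825 and the lowest for Anks1, Rnps1, Atp6v0c, Gnptg, Prss30, Cdkn1a and Hmga1, and replicate 1 was at the opposite end for each of them. Replicate 2 lay between the other two in 53.8% of all genes tested. The counts of replicates 1 and 3 also differed most over all genes, with a chi-square per degree of freedom of 26.8, against 10.5 between replicates 1 and 2 and 9.73 between 2 and 3. The p21 genotype of the GFP libraries was not tested. Markers of other cells moved with the sort too. The summed level of 5 thymic epithelium genes was 36.9 to 79.6 CPM in GFPhi and 15.96 to 22.9 CPM in GFPlo, mostly Epcam, with Foxn1 at most 0.07 CPM and Krt5 at most 0.10 CPM. The summed level of 6 B-cell genes was 38.8 to 104 CPM in GFPhi and 22.9 to 26.1 CPM in GFPlo, with Cd74 at 13.7, 57.4 and 16.4 CPM in GFPhi and 0.30 to 0.42 CPM in GFPlo. Most of the GFPlo B-cell sum was Cd79b, at 21.6 to 23.8 CPM there and 19.4 to 27.6 CPM in GFPhi. Myeloid markers went the other way, summing to 10.7 to 12.8 CPM in GFPhi and 15.6 to 16.7 CPM in GFPlo. The 10 DN3 genes summed to 9626 to 10966 CPM in GFPhi and 8903 to 9293 CPM in GFPlo, with Il2ra at 2287 to 3225 and 1563 to 1761 CPM. The part of all these markers in the members' differences was not tested.

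Around Cdkn1a 75 of 330 genes tested within 10 Mb were called between GFPhi and GFPlo (22.7%), and 69 of 322 with the members left out (21.4%), against 30 of 185 (16.2%) farther than 20 Mb on chromosome 17 and 1591 of 10927 (14.6%) on other chromosomes. Without GFPhi replicate 3 these were 155 of 333 (46.5%), 149 of 325 (45.8%), 72 of 190 (37.9%) and 4560 of 11080 (41.2%). At 0 to 2 Mb after Cdkn1a 7 of 19 genes were called, all lower in GFPhi (14 of 19, all lower, without replicate 3), with the members Glo1, Dnah8 and Btbd9 among them in both fits. The median log2 difference was -0.13 within 10 Mb and -0.15 farther than 20 Mb on chromosome 17, against 0.02 on other chromosomes pooled. Chromosome 17 was not alone in this: the median was -0.43 on chromosome 15, where 222 of 464 genes were called (219 lower), and -0.18 on chromosome 2, where 161 of 923 were (148 lower). The part of this in the members' differences was not tested. Of the nearest genes named above for the Lmo2Tg pair, Cpne5 was called here (log2 -1.88, edgeR adjusted p = 0.021; -2.31, 0.000331 without replicate 3). Tff3 passed the filter on low counts only through GFPlo and is given by its counts, which were 1, 0 and 0 in GFPhi and 15, 34 and 34 in GFPlo.

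Among the 5 genes whose level ran most like that of Glo1 over the 9 genotype libraries were Gm9825 (Pearson r = 0.971), Plin2 (0.952), Lrrc8b (0.944) and Nck1 (0.928). The most opposed were Rnps1 (-0.986), Anks1 (-0.979), Hmga1 (-0.977), Srrd (-0.968) and Atp6v0c (-0.962). These are descriptions over 9 libraries in 4 groups, compared with 11034 genes. The gene nearest in pattern was Hmga1 for Rnps1 (0.988), Atp6v0c (0.978) and Gnptg (0.958), Baiap3 for Anks1 (0.974), Zfp944 for Dnah8 (0.971), Dnah8 for Btbd9 (0.949), St6galnac4 for Prss30 (0.964) and Gm9825 for Prss41 (0.918). Of the 20 genes most like each member, 10 or 11 lay within 10 Mb of Cdkn1a for Anks1, Rnps1, Atp6v0c and Gnptg and 2 or 3 for the other 5 members. Of all genes compared, 2.83% lay there (2.84% for Prss41). Other members are among these genes, so the counts follow in part from how the members were chosen.

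The partners of the members by known function were then counted, none of which was called between p21-/- and wild-type in any of the 9 lists, where 0.11% of all genes tested were. In the other comparisons the lists' counts stand beside the shares of all genes given above, 36.6% in Lmo2Tg against wild-type, 30.7% with the transgene on the p21-/- background, 6.94% between Lmo2Tg;p21-/- and Lmo2Tg and 14.9% between GFPhi and GFPlo. Of 12 glyoxalase and methylglyoxal genes tested, 2 rose and 4 fell in Lmo2Tg against wild-type (Ager, the receptor for glycation products, 0.68 and Hagh, glyoxalase II, 0.38; Tpi1 -0.54 and Gsr -0.53), with a median log2 of -0.09 against -0.01 over all genes tested. Only Gsr, glutathione reductase, was called between Lmo2Tg;p21-/- and Lmo2Tg (-0.40) and, of the 12, between GFPhi and GFPlo (0.42). On the p21-/- background 2 rose (Ager 0.73, Hagh 0.48) and 3 fell with the transgene (Gsr -0.93, Tpi1 -0.83 among them), with a median of -0.05.

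Axonemal dynein and cilium genes, the family of Dnah8, were mostly too low to test, with 6 tested of 17 in the table. Of these, 4 rose and 1 fell in Lmo2Tg against wild-type (Dnah12, log2 2.20, and the cilium regulator Foxj1, 2.10, rose and Dnal1, -0.79, fell), with a median of 1.53 against -0.01 over all genes. On the p21-/- background 3 rose and 1 fell (Dnah12 2.71, Dnah11 1.83 and Dnah1 -1.49), with a median of 0.67. Between Lmo2Tg;p21-/- and Lmo2Tg 1 was called, lower (Foxj1 -3.27, median -0.07), and between GFPhi and GFPlo 3 were called, all lower in GFPhi (Dnah1 -2.97 and Dnah17 -2.17 among them, median -0.50 against 0.02). Without GFPhi replicate 3 it was 2 higher (Dnah11 2.45 and Foxj1 1.80) and 4 lower of 8 tested, with a median of -0.42.

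Of 17 V-ATPase genes other than Atp6v0c, 1 rose and 4 fell in Lmo2Tg (Atp6v0a2 0.35, Atp6v1d -0.41, Tcirg1 -0.31, median -0.05), 3 rose and 0 fell with the transgene on the p21-/- background (Atp6v1g2 1.20, Atp6v0a2 0.33, median 0.07), 0 were called by edgeR between Lmo2Tg;p21-/- and Lmo2Tg (median 0.06), and 1 was higher and 1 lower in GFPhi (Atp6ap1 0.28, Atp6v1c1 -0.40, median 0.14). Of 17 genes of mannose 6-phosphate tagging and sorting, the pathway of Gnptg, 4 rose and 5 fell in Lmo2Tg (the lysosomal enzymes Gla, 1.25, and Hexa, -0.54, and the sorting adaptors Gga3, 0.63, and Gga2, -0.50, median -0.05). The transgene on the p21-/- background raised 3 and lowered 1 (Gga3 1.00, Igf2r 0.44, Gga2 -0.49), Gla fell between Lmo2Tg;p21-/- and Lmo2Tg (-1.42), and 3 were higher and 2 lower in GFPhi (Hexa 1.15, Gga3 0.34, Igf2r -1.11, Gga1 -0.48, median 0.07).

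Of 17 genes of the exon junction complex and its splicing partners, with which Rnps1 acts, 4 rose in Lmo2Tg (Smg1 0.47 and Acin1 0.39 among them, median 0.10), 2 fell with the transgene on the p21-/- background (Eif4a3 -0.30, Upf3a -0.28), 1 was lower in Lmo2Tg;p21-/- than in Lmo2Tg (Magoh -0.48) and 1 was higher in GFPhi (Smg1 0.22). Of 17 cullin 3 genes and BTB adaptors, the group of Btbd9, 3 rose in Lmo2Tg (Kbtbd2 0.85, Klhl21 0.34), 1 rose and 2 fell with the transgene on the p21-/- background (Klhl20 0.38, Btbd3 -0.83, Btbd10 -0.35), 1 was higher and 2 lower in Lmo2Tg;p21-/- than in Lmo2Tg (Klhl20 0.39, Kbtbd2 -0.53, Btbd10 -0.47) and 1 was lower in GFPhi (the ring-finger subunit Rbx1, -0.48). The medians of both lists stayed between -0.10 and 0.12 in these comparisons.

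Of 9 Eph receptors and ephrins, partners of the adaptor Anks1, 3 rose and 3 fell in Lmo2Tg (Efnb2 2.05, Efnb3 1.54, Epha2 -4.66, median 0.66), 3 rose and 1 fell with the transgene on the p21-/- background (Epha1 1.14, Efnb3 1.08, Epha2 -4.68, median -0.15), 0 were called by edgeR between Lmo2Tg;p21-/- and Lmo2Tg (median -0.08) and 3 were lower in GFPhi (Ephb4 -6.15, Epha1 -1.84, median -0.43). Only 2 serine protease genes other than the members could be tested in the genotype table, both lower in Lmo2Tg (Prss36 -0.74, Prss57 -0.67), with Prss57 lower also on the p21-/- background (-0.44), and among the GFP libraries 1 of 3 was called (the thymic protease Prss16, 3.79 higher in GFPhi).

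The major histocompatibility complex lies farther along the same chromosome. Its called genes lie 4.91 to 8.18 Mb after Cdkn1a and are thus among the genes counted above within 10 Mb of it. The complex gave 7 higher and 5 lower of 22 genes in Lmo2Tg (H2-T3 2.39, H2-DMb1 -1.93, median 0.11) and 5 and 5 with the transgene on the p21-/- background (H2-T3 2.69, H2-DMa -1.66). Between Lmo2Tg;p21-/- and Lmo2Tg 1 was higher and 1 lower (H2-T23 0.34, H2-Q4 -0.34, median 0.07). In GFPhi 9 of 22 were higher and none lower (H2-Aa 5.12 and H2-Eb1 5.02, class II genes of antigen-presenting cells, median 0.51 against 0.02), and the B-cell marker sum given above was higher there too, whose part was not tested.

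Without GFPhi replicate 3 more genes of the other lists were called between GFPhi and GFPlo, as of all genes (41.3%). It was 5 higher and 2 lower of 12 for the glyoxalase list, 4 and 3 of 17 for the V-ATPase, 4 and 3 of 17 for mannose 6-phosphate tagging, 3 and 1 of 17 for the exon junction complex and 4 and 2 of 17 for the cullin 3 list. It was 0 higher and 5 lower of 9 for the Eph list by edgeR, 1 and 1 of 3 for the serine proteases and 12 and 1 of 22 for the major histocompatibility complex.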

How the data were processed

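RNA-seq counts of 15 DN3 libraries were used, 9 that differ in genotype and 6 sorted by GFP. The authors deposited whole-number counts per gene for 22114 protein-coding genes, in separate tables for genotype and GFP. The submitters' processing notes name STAR 2.4.2a, featureCounts, limma and mm10. Of the columns of per-sample values 1 was not used: its name is that of a Lmo2Tg;p21-/- replicate 3, which the labels do not list. The p21-/- replicate 3 that they list matched no column by name and is not analysed here, so p21-/- has 2 libraries. The 2 Lmo2Tg columns were taken by group, without replicate numbers, because the labels also give their short names to GFPlo samples, whose counts are in the other table. Counts were tested with edgeR 4.0.16 (R 4.3.3; TMM, filterByExpr with a minimum count of 10 and a minimum total of 15, quasi-likelihood F test, Benjamini-Hochberg over all genes tested, limit 0.05), with all groups of a table in 1 fit, limma 3.58.1 serving only edgeR. DESeq2 1.42.0, RLE scaling, no filter, an added fold limit of 2 (with 0.01 for GFP), fits of the groups compared only, a replicate block and leaving out each library were the alternatives. The fit was tested on simulated data. Gene IDs matched GENCODE M21 for 98.2%; windows, sequence matches and figures were computed with Python 3.11.15, numpy 2.4.6, pandas 2.3.3, scipy 1.17.1 and matplotlib 3.10.9.

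The members, gene lists and cell markers were chosen with earlier results of these data known. Besides the members and Cdkn1a, the text names the 5 nearest called non-members on each side per p21 comparison, up to 2 called genes per direction in each list, the genes most like each member over the genotype libraries (log2 CPM, prior count 2, at least 1 CPM on average; for Glo1 also the most opposed) and marker genes. The likeness of same-numbered libraries, as the correlation of their deviations from group means, was 0.070, -0.079 and 0.099 for GFPhi and GFPlo. With 3 libraries per group and GFPhi replicate 3 apart from the others, these values cannot decide whether same-numbered libraries are pairs. The main fit treated them as unpaired. Levels, fold changes and errors are limited by 2 or 3 libraries per group. A group at 0 was set to a floor of 3 counts per library. A gene that these rules name is not reported here.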

Additional observations from a re-analysis of the deposited data

Results flagged for a closer look

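Atp6v0c moved in opposite directions with the Lmo2 transgene: every Lmo2Tg library lay above every wild-type library (log2 difference 0.305), and every Lmo2Tg;p21-/- library lay below every p21-/- library (-0.355). Groups did not overlap for 60.9% and 70.9% of all genes tested in these comparisons. The difference between these effects was not tested. As given above, the call in Lmo2Tg against wild-type was lost without single libraries, and the call on the p21-/- background was lost under DESeq2.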

How the results depend on the processing

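With the fold limit 1420 genes were called in Lmo2Tg against wild-type, 1230 with the transgene on the p21-/- background, 222 between Lmo2Tg;p21-/- and Lmo2Tg (20 within 10 Mb of Cdkn1a) and, with the limit on adjusted p also lowered to 0.01, 261 between GFPhi and GFPlo (731 with the fold limit alone). With only the libraries compared, 404 were called between Lmo2Tg;p21-/- and Lmo2Tg (30 within 10 Mb). DESeq2 called 2879 genes between GFPhi and GFPlo and 20 between p21-/- and wild-type (15 within 10 Mb), and no filter called 21 (15 within 10 Mb). Leaving out 1 library gave 273 to 4848 genes between GFPhi and GFPlo, 2815 to 4248 in Lmo2Tg against wild-type, 60 to 1128 between Lmo2Tg;p21-/- and Lmo2Tg (13 to 63 within 10 Mb), 1914 to 4251 with the transgene on the p21-/- background, and 8 to 18 between p21-/- and wild-type (6 to 12 within 10 Mb). The lowest values came without GFPlo replicate 2 (273) and without the first Lmo2Tg;p21-/- library (60 and 13). The sign of the log2 difference turned for Anks1 in Lmo2Tg against wild-type (-0.10 to 0.22 over the libraries left out), Prss41 in the same pair (-3.13 to 1.61) and Anks1 between GFPhi and GFPlo (-0.13 to 0.46). The causes were not tested. The study describes independent cohorts for the GFP sorts, but no source used here says that same-numbered libraries share one. The low correlation of their deviations cannot decide it. A replicate block called 496 genes between GFPhi and GFPlo with 2 members (Glo1 and Dnah8), 16 between p21-/- and wild-type (12 within 10 Mb) and 4964 with the transgene on the p21-/- background. Of the values for single genes 578 kept direction and side of the limit, 84 lost and 11 gained a call, and 3 turned. With 2 or 3 libraries per group, small differences such as that of Rnps1 between GFPhi and GFPlo may be missed, and members below about 1 CPM rest on few counts.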
